A study of Mus musculus with 18 samples.

Results

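The genes described are 8 chemokine ligands of myeloid cells, Ccl2, Ccl3, Ccl4, Ccl6, Ccl9, Cxcl2, Cxcl10 and Cxcl16. Each was measured by the probe set annotated to its symbol alone, and each of the 8 had 1 such probe set. They are 8 of 19938 genes with such a probe set on the Affymetrix Mouse Gene 1.0 ST array, and all 8 are among the 13387 genes that passed the filter on low values. The cells were Ly-6C(hi) monocytes, the young inflammatory monocytes of the marrow, and neutrophils, both sorted by flow cytometry from bone marrow of C57BL/6 mice. Control mice were Zeb2(fl/fl), with both alleles of the repressor gene Zeb2 floxed and no Cre. Mice labelled Zeb2-deficient were Zeb2(fl/fl);Mx1-Cre(tg), in which an interferon-responsive promoter drives Cre, so that the 2 genotypes differ in Cre as well as in the labelled loss of Zeb2 and these cannot be told apart. Both genotypes were given poly(I:C), a synthetic double-stranded RNA, in 2 doses of 150 µg inside 48 h, and their cells were taken 3 weeks afterwards. For each cell type there were 9 arrays, 4 from controls given poly(I:C), 4 from mice labelled deficient and 1 from an untreated Zeb2(fl/fl) mouse, which makes 18 in all. The mice had no age in the sources used here, and nothing in the labels says whether arrays of a group came from separate mice, so p-values measure only the spread between these samples.

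Chemokines are small secreted proteins that direct the movement of leukocytes by binding receptors with 7 membrane-spanning segments, named by ligand class as Ccr and Cxcr. Ccl2 draws monocytes out of the marrow through Ccr2. Ccl3 and Ccl4 are related inflammatory chemokines, and Ccl3 is a ligand of Ccr1. Ccl6 and Ccl9 are rodent ligands of Ccr1 made by myeloid cells. Cxcl2 attracts neutrophils through Cxcr2, and its release within the marrow is known to favour their exit. Cxcl10 is a classic interferon-induced ligand of Cxcr3 on T and NK cells, and Cxcl16 is a ligand of Cxcr6 that is made as a membrane protein and shed by the proteases Adam10 and Adam17.

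The sorted populations differed in their defining markers. The mean log2 intensity of 10 Ly-6C(hi) monocyte genes was 10.2 to 10.4 in control monocytes, 9.12 to 10.1 in monocytes labelled deficient and 4.76 to 5.35 in the poly(I:C)-treated neutrophils. The mean of 11 mature neutrophil genes was 6.21 to 7.42 in control monocytes, 9.38 to 10.4 in monocytes labelled deficient and 11.8 to 12.0 in these neutrophils. Zeb2 was 9.92 ± 0.10 (SD, n = 4) in control monocytes and 9.45 ± 0.50 in those labelled deficient (adjusted p = 0.272). In neutrophils Zeb2 ran against the label, at 7.24 ± 0.30 in controls and 7.73 ± 0.48 in arrays labelled deficient (adjusted p = 0.972), so genotypes are named here only as labelled. Its probe set sums up the full transcript, and which part Cre removes is not in the labels, so these levels do not check the deletion. The sample list gives the arrays in 2 runs, called the first and second array set, each with 2 arrays of every poly(I:C) group, and the first also holds both untreated arrays. The labels do not call these runs batches.

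**Figure D1:**
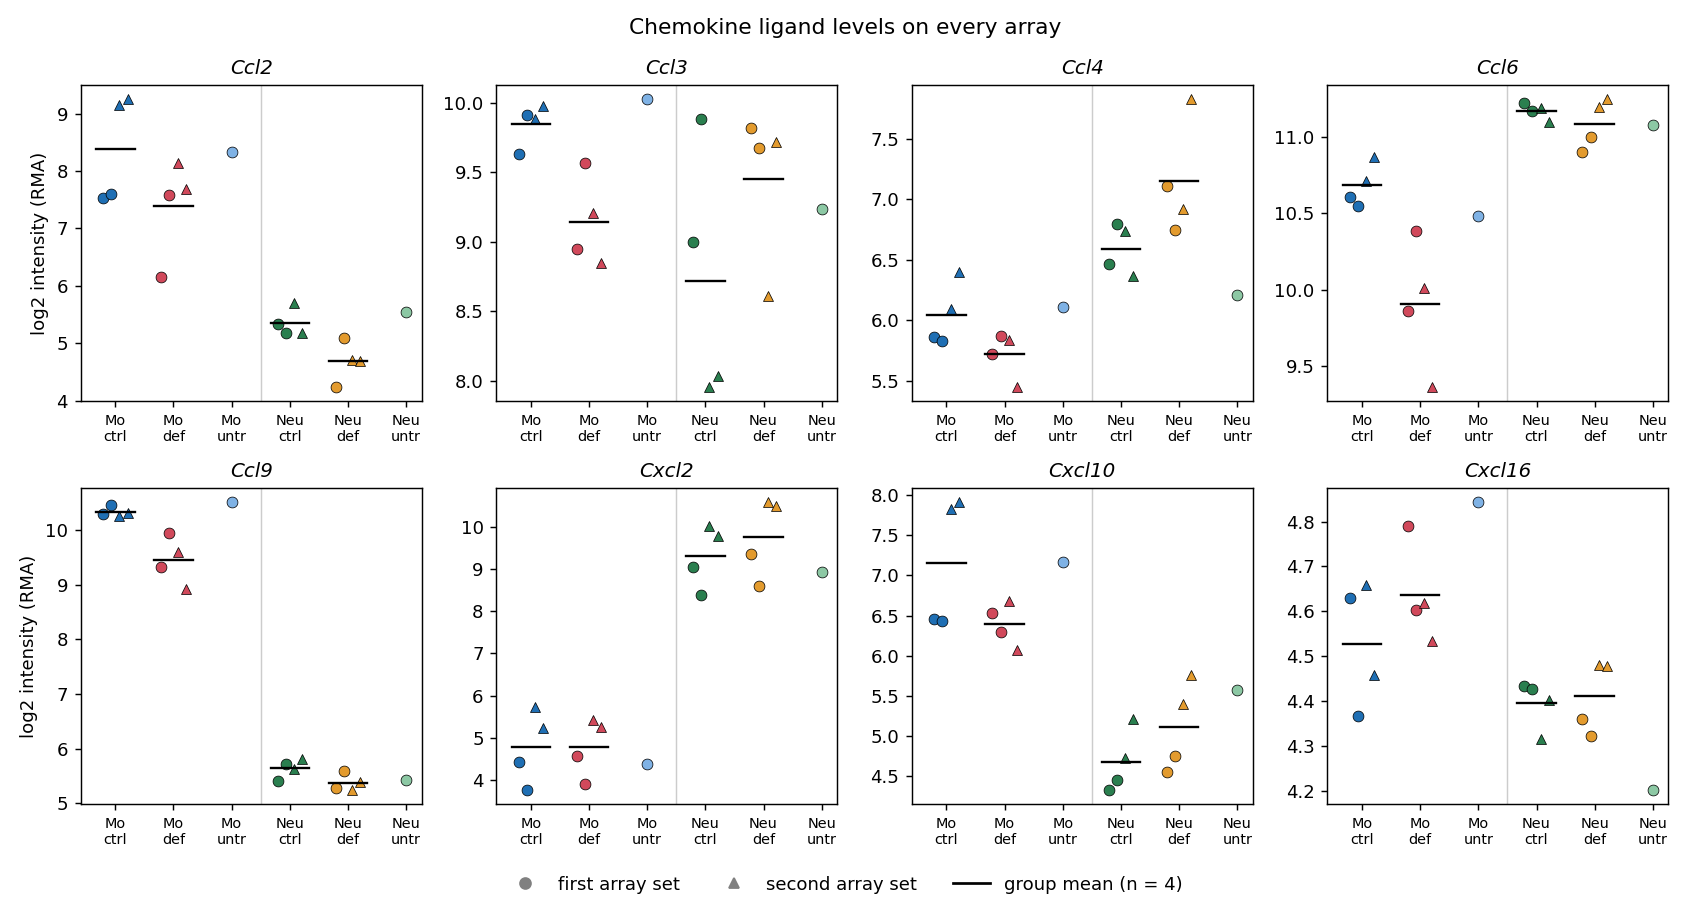
Log2 intensity (RMA) of each chemokine ligand on all 18 arrays; Mo is monocytes, Neu neutrophils, ctrl poly(I:C) controls, def labelled Zeb2-deficient, untr untreated; circles are the first array set, triangles the second, and lines the means of 4 arrays. Ccl9 and Ccl2 lie high in monocytes, Cxcl2 lies high in neutrophils with triangles above circles in all 4 groups, and Cxcl16 stays between 4.20 and 4.84.

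Control monocytes and control neutrophils differed in the levels of most of these ligands. Of the 8, 7 differed at an adjusted p under 0.05, against 58.6% of all genes tested (29.9% higher in monocytes and 28.7% lower). Ccl2, Ccl3, Ccl9 and Cxcl10 were higher in monocytes and Ccl4, Ccl6 and Cxcl2 higher in neutrophils. The largest differences were in Ccl9, 25.6-fold higher in monocytes, and Cxcl2, 23.1-fold higher in neutrophils. For 5 of the 8 the arrays of the cell types did not overlap, 3 higher in monocytes and 2 lower, against 56.2% of all genes tested (28.6% and 27.6%).

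Cxcl2, the ligand of the neutrophil receptor Cxcr2 (probe set 10523156), had the largest difference of the ligands that were higher in neutrophils. Control neutrophils read 9.05, 8.39, 10.02 and 9.80 in log2 intensity, and control monocytes 4.42, 3.76, 5.74 and 5.22. Every neutrophil array lay far above every monocyte array, and within each cell type the second pair of arrays lay above the first. The difference, monocytes minus neutrophils, was -4.53 ± 0.48 (SE) with adjusted p = 2.69e-07. On 3 of 4 control monocyte arrays Cxcl2 was above the 40th percentile of the array, a low level set by the filter. The Cxcl2 promoter window, the 250 bases before the RefSeq start (GRCm38.p6, chr5:90903649-90903898, plus strand), is shown because it holds the NF-kB motif of the immediate inflammatory chemokines, in capitals.
Cxcl2: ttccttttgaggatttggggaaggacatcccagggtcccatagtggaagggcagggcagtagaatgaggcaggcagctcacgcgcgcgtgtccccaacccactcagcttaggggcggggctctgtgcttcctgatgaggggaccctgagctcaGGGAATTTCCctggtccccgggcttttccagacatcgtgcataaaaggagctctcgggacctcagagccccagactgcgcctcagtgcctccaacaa
The motif was searched on both strands as these 10 letters with any base at the fifth and the eighth. The match starts 97 bases before the start site, and 0.98% of 32851 promoter windows of this length hold one.

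Ccl9 and Ccl6 are neighbours on chromosome 11, in a row that runs Ccl5, Ccl9, Ccl6, Ccl3 and Ccl4 in RefSeq's GRCm38.p6 annotation. Their levels were distributed differently. Ccl9 (probe set 10389214) read 10.29, 10.46, 10.25 and 10.30 in control monocytes and 5.41, 5.71, 5.64 and 5.81 in control neutrophils, a difference of 4.68 ± 0.17 (SE, adjusted p = 2.93e-13). Ccl6 (probe set 10389222) read 10.61, 10.55, 10.71 and 10.87 in control monocytes and 11.23, 11.17, 11.19 and 11.10 in control neutrophils. It was thus high in both cell types and 1.40-fold higher in neutrophils, with no overlap (-0.49 ± 0.15, adjusted p = 0.0116). In the second array set alone the Ccl6 difference was -0.36 (adjusted p = 0.104).

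The promoter windows of Ccl6 (chr11:83593088-83593337) and Ccl9 (chr11:83578637-83578886), both on the minus strand of GRCm38.p6 from RefSeq, are shown because these were the members whose monocyte level fell with genotype below. Capitals mark the longest run of bases the windows share, 13 bases, which starts 55 bases before the start of Ccl6 and 14 before that of Ccl9.
Ccl6: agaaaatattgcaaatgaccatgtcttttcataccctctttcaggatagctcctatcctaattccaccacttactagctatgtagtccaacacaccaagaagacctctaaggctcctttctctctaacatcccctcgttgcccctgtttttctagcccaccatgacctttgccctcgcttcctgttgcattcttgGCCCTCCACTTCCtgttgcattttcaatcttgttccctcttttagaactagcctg
Ccl9: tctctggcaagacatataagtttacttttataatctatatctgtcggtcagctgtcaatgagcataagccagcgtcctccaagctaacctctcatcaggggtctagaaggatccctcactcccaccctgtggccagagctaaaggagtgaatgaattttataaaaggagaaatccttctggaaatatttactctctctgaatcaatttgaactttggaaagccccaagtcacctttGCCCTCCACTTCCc
The longest runs shared by the other pairs of the 5 members in the promoter table, Ccl3, Ccl6, Ccl9, Cxcl2 and Cxcl10, were 8 to 10 bases. Neither window holds the NF-kB motif, the interferon-response motif described with Cxcl10 or the PU.1 letters GAGGAAGT, searched on both strands. The Ccl9 window holds 1 AP-1 match to TGANTCA, whose last base lies 47 bases before the start, and 6.75% of all windows hold one.

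Ccl2, the ligand of the monocyte receptor Ccr2 (probe set 10379511), read 7.54, 7.60, 9.16 and 9.25 in control monocytes. In control neutrophils it read 5.33, 5.18, 5.70 and 5.17. All monocyte arrays lay above all neutrophil arrays, and the monocyte values split into a low and a high pair that follow the array sets. The difference of 3.04 ± 0.40 (SE, 8.23-fold, adjusted p = 3.55e-06) was 2.32 in the first set and 3.77 in the second, each with an adjusted p of at most 0.00049.

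Cxcl10 (probe set 10531415) showed the same kind of split. Control monocytes read 6.45, 6.43, 7.83 and 7.91, and control neutrophils 4.33, 4.45, 4.73 and 5.21. No array of one cell type reached the other, and the difference was 2.48 ± 0.33 (SE, 5.58-fold, adjusted p = 4.38e-06), or 2.05 and 2.91 in the first and second sets. On 3 of 4 control neutrophil arrays Cxcl10 was above the 40th percentile, so this difference is not an exact measure. The Cxcl10 window (chr5:92348890-92349139, minus strand, GRCm38.p6 from RefSeq) is shown because it holds 3 of the 4 motifs searched, in capitals from left to right an interferon-response match, an NF-kB match and an AP-1 match.
Cxcl10: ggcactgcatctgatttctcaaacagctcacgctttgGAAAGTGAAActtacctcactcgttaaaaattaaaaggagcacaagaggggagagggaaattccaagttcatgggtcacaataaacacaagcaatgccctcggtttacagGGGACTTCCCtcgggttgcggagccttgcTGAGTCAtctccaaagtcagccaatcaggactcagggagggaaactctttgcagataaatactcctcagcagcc
The interferon-response motif, searched on both strands with any base at the fifth and the sixth of its 10 letters, occurs in 2.98% of all windows and starts 213 bases before the Cxcl10 start site. The NF-kB match starts 103 bases before it, and Cxcl2 and Cxcl10 were the 2 of 5 members with these letters. The AP-1 match starts 74 bases before it, and Ccl9 and Cxcl10 were the 2 of 5 with one. None of these matches overlaps another.

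The neighbouring inflammatory ligands Ccl3 and Ccl4 differed in opposite directions between the control cell types. Ccl3 (probe set 10389231) read 9.63, 9.91, 9.88 and 9.97 in control monocytes and 9.00, 9.88, 7.96 and 8.03 in control neutrophils. The monocyte arrays lay close together, while 1 of the neutrophil arrays reached them and the second pair lay far below. The Ccl3 difference was 1.13 ± 0.34 (SE, adjusted p = 0.00817), but 0.33 (adjusted p = 0.321) in the first array set and 1.93 (adjusted p = 0.000108) in the second. Ccl4 (probe set 10379721) read 5.86, 5.83, 6.09 and 6.40 in control monocytes and 6.46, 6.79, 6.73 and 6.36 in control neutrophils, with 1 monocyte array just above the lowest neutrophil array. The Ccl4 difference was -0.55 ± 0.20 (SE, adjusted p = 0.0238). Without replicate 1 or 2 of the control monocytes, or replicate 2 or 4 of the control neutrophils, its adjusted p was 0.0616 to 0.0720, and in the second array set alone 0.373.

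Cxcl16 (probe set 10387890) stayed low in every group. It ran from 4.37 to 4.66 in control monocytes and from 4.31 to 4.43 in control neutrophils, close to the arrays' 40th percentiles of 4.28 to 4.37 and 4.40 to 4.50. The difference of 0.13 ± 0.093 (SE) had adjusted p = 0.224.

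**Figure D2:**
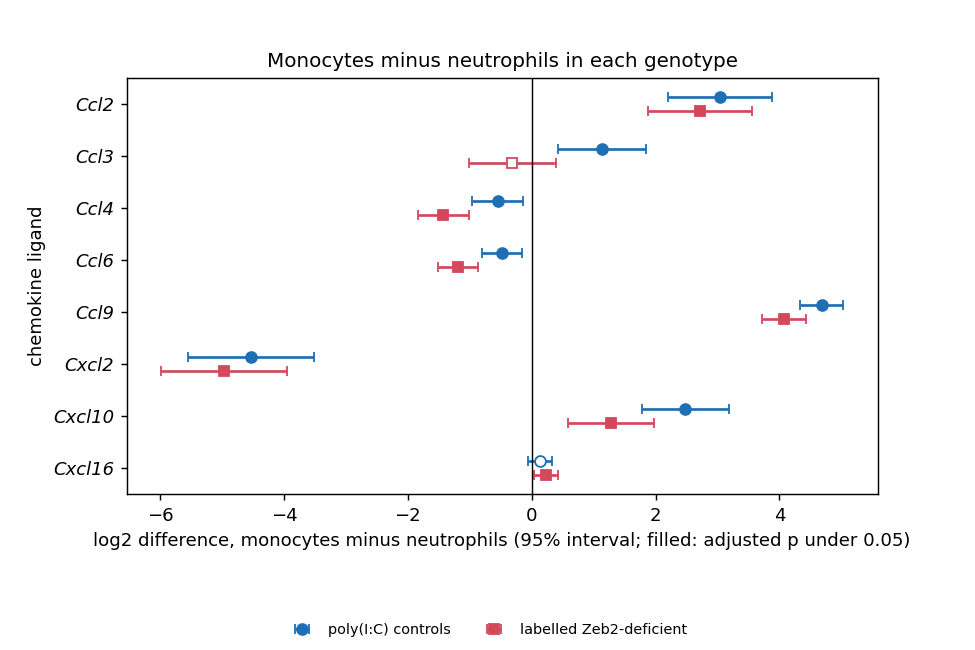
Log2 difference of each chemokine ligand, monocytes minus neutrophils, in poly(I:C) controls (circles) and in arrays labelled Zeb2-deficient (squares), with 95% intervals; filled symbols have an adjusted p under 0.05. Ccl9 and Cxcl2 mark the extremes in both genotypes, and Ccl3 is 1.13 in controls and -0.31 in arrays labelled deficient.

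In monocytes labelled Zeb2-deficient, 2 of the 8 ligands differed from the poly(I:C) controls, and both fell. These were Ccl6 and Ccl9, neighbouring genes of Ccr1 ligands. Ccl3, another Ccr1 ligand and the neighbour of Ccl6 on its other side, did not pass. Over all genes tested, 7.54% were called in this comparison and 2.44% were called lower. The arrays of the 2 genotypes did not overlap for 3 ligands, Ccl3, Ccl6 and Ccl9, all lower, against 10.0% of all genes tested in either direction and 3.92% lower. The median change of the 8 was -0.73, with 6 of 8 below 0, beside a median of -0.034 over all genes tested, 57.4% of which were below 0.

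Ccl9 read 9.33, 9.94, 9.60 and 8.92 in monocytes labelled deficient, all below the control range of 10.25 to 10.46. The change was -0.87 ± 0.17 (SE), a 1.83-fold lower level with adjusted p = 0.00285. It was -0.74 (adjusted p = 0.147) in the first array set and -1.01 (adjusted p = 0.00665) in the second.

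Ccl6 read 9.86, 10.38, 10.01 and 9.36 in monocytes labelled deficient, below every control value of 10.55 to 10.87. Its change was -0.78 ± 0.15 (SE), a 1.72-fold lower level with adjusted p = 0.0035. In the first array set it was -0.46 (adjusted p = 0.188) and in the second -1.10 (adjusted p = 0.00133). Arrays of the same replicate number deviated together, to a degree that overlapped that of other arrays of their set. With the replicate as a block, over the 3 numbers both genotypes share, the Ccl6 change was -0.75 with adjusted p = 0.150. The block left 1 member called, Ccl9 (-0.93, adjusted p = 0.0470), and 217 genes in all in place of 1010.

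The other 6 ligands did not pass the test in monocytes over all arrays. Ccl2 read 6.16, 7.59, 8.15 and 7.69 in monocytes labelled deficient, against 7.54 to 9.25 in controls, and the ranges overlapped. Its change was -0.99 ± 0.40 (SE, adjusted p = 0.159), or -0.70 (adjusted p = 0.643) in the first set and -1.28 (adjusted p = 0.0017) in the second. Ccl3 read 8.94, 9.57, 9.21 and 8.84, all below the controls, with a change of -0.71 ± 0.34 (SE, adjusted p = 0.248). Its value was -0.52 (adjusted p = 0.584) in the first set and -0.90 (adjusted p = 0.0497) in the second, and adjusted p was 0.0330 when only these 8 monocyte arrays were fitted.

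Cxcl10 read 6.53, 6.29, 6.69 and 6.07 in monocytes labelled deficient. These values lay with the first pair of controls, 6.45 and 6.43, and below the second pair, 7.83 and 7.91. The change was -0.76 ± 0.33 (SE, adjusted p = 0.199) over all arrays. It was -0.030 (adjusted p = 0.985) in the first set and -1.49 (adjusted p = 0.00151) in the second, and blocking on the array set gave an adjusted p of 0.0369.

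Neither Ccl4, Cxcl2 nor Cxcl16 passed the test in monocytes. Ccl4 was -0.32 ± 0.20 (SE, adjusted p = 0.400), with a 95% interval from -0.73 to 0.090, and -0.044 and -0.60 in the first and second sets. Cxcl2 read 4.56, 3.91, 5.42 and 5.25 in monocytes labelled deficient, and its change was 0.0022 ± 0.48 (SE, adjusted p = 0.999) with a 95% interval from -1.01 to 1.02. Within the sets it was 0.15 and -0.14. Cxcl16 was 0.11 ± 0.093 (SE, adjusted p = 0.591), at 0.20 and 0.018 in the sets.

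Markers of neutrophils and of primary granules moved with the same comparison. In monocytes labelled deficient 10 of 11 mature neutrophil genes and 8 of 8 primary granule genes rose. Their median changes were 3.19 and 2.65 in log2. Of the 10 Ly-6C(hi) monocyte genes 3 fell and the other 7 had values below 0. Over all genes tested 7.54% were called either way and 2.44% lower. The primary granule list was not a trait of the sorted neutrophils. Its median was 1.94 higher in control monocytes than in control neutrophils, with 4 of 8 genes called higher and 2 lower. Its mean level was 8.49 to 10.5 in monocytes labelled deficient and 5.80 to 6.86 in neutrophils labelled deficient. Among ligands higher in control neutrophils, the change between the monocyte groups was 0.0022 for Cxcl2, -0.32 for Ccl4 and -0.78 for Ccl6. Among those higher in control monocytes, the change was -0.99 for Ccl2, -0.87 for Ccl9, -0.76 for Cxcl10 and -0.71 for Ccl3. Only Ccl6 and Ccl9 passed. Of the mature neutrophil genes Ly6g, Cxcr2, Mmp9 and Stfa3 were not above the 40th percentile on every control monocyte array, while all 11 were on every array labelled deficient. In neutrophils no gene of these 3 lists passed. The part of these markers in the ligand changes was not tested. In sorted cells, fewer cells of a type and less RNA per cell cannot be told apart.

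**Figure D3:**
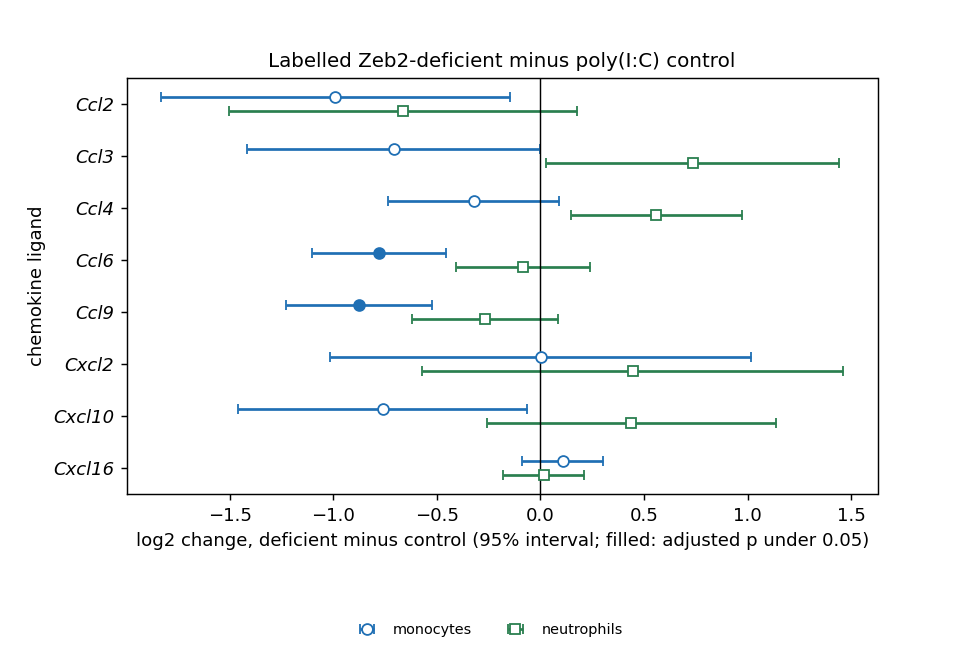
Log2 change of each chemokine ligand, arrays labelled deficient minus controls given poly(I:C), in monocytes (circles) and neutrophils (squares), with 95% intervals; filled symbols have an adjusted p under 0.05. Only Ccl6 (-0.78) and Ccl9 (-0.87) in monocytes are filled, and Ccl3 and Ccl4 lie below 0 in monocytes and above 0 in neutrophils.

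In neutrophils none of the 8 ligands passed the test, and 0.120% of all genes tested, 16 genes, did. At an unadjusted limma p under 0.05 there were 2 of 8, Ccl3 and Ccl4, against 5.10% of all genes tested. Ccl3 read 9.82, 9.67, 8.61 and 9.71 in neutrophils labelled deficient, against 7.96 to 9.88 in controls, with a change of 0.73 ± 0.34 (SE, adjusted p = 0.971). It was 0.30 in the first array set and 1.17 in the second. Ccl4 read 7.11, 6.75, 6.92 and 7.82, against 6.36 to 6.79, with a change of 0.56 ± 0.20 (SE, adjusted p = 0.791), or 0.30 and 0.82 in the sets.

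Ccl2 was the 1 ligand whose neutrophil arrays did not overlap between genotypes. It read 4.24, 5.09, 4.70 and 4.69 in neutrophils labelled deficient, all below the controls' 5.17 to 5.70, while 3.43% of all genes did not overlap and 1.59% did so with lower values. The change was -0.66 ± 0.40 (SE, adjusted p = 0.999), and -0.59 and -0.74 in the sets. On 3 of 4 neutrophil arrays labelled deficient Ccl2 was above the 40th percentile, so this change is not an exact measure. Cxcl2 read 9.37, 8.61, 10.58 and 10.49, with a change of 0.45 ± 0.48 (SE), and Cxcl10 read 4.55, 4.75, 5.40 and 5.76, with a change of 0.44 ± 0.33 (SE). Ccl6 ran from 10.90 to 11.25 (-0.085 ± 0.15) and Ccl9 from 5.25 to 5.59 (-0.27 ± 0.17), and both overlapped the controls.

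Whether the genotype change differed between the cell types was tested directly. None of the 8 ligands passed over all arrays, against 2.68% of all genes tested, and 5 of 8 did so at an unadjusted limma p under 0.05, against 13.5% of all genes at that limit. These 5, with the monocyte change below the neutrophil change, were Ccl3 (-1.44 ± 0.48, adjusted p = 0.135), Cxcl10 (-1.20 ± 0.47, adjusted p = 0.240), Ccl4 (-0.88 ± 0.28, adjusted p = 0.111), Ccl6 (-0.70 ± 0.22, adjusted p = 0.110) and Ccl9 (-0.61 ± 0.24, adjusted p = 0.240), with SE. For Ccl6 and Ccl9 a fall in monocytes alone is therefore not shown. Blocked on the array set, Cxcl10 passed (adjusted p = 0.0415), and Ccl3 (-2.07, adjusted p = 0.00854), Ccl6 (-1.18, adjusted p = 0.0138) and Cxcl10 (-2.11, adjusted p = 0.0031) passed in the second set alone. No ligand passed in the first set alone. Without replicate 2 of the monocytes labelled deficient Ccl6 (adjusted p = 0.00667) and Ccl9 (adjusted p = 0.0284) passed, and without replicate 2 of the control neutrophils Ccl3 did (adjusted p = 0.0166).

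Monocytes and neutrophils labelled deficient kept the order of most ligands. Here 7 of 8 differed, 4 higher in monocytes and 3 lower, against 62.1% of all genes tested (30.0% and 32.1%). For 7 of 8 the arrays did not overlap, 4 higher and 3 lower, against 50.7% (25.2% and 25.5%). Ccl9 (4.07 ± 0.17, 16.8-fold), Ccl2 (2.72 ± 0.40, 6.57-fold) and Cxcl10 (1.28 ± 0.33, 2.43-fold) were higher in monocytes. Cxcl2 (-4.97 ± 0.48, 31.4-fold), Ccl4 (-1.43 ± 0.20, 2.69-fold) and Ccl6 (-1.18 ± 0.15, 2.27-fold) were higher in neutrophils, and the largest adjusted p of these 6 was 0.00309. Ccl2 in these neutrophils and Cxcl2 in these monocytes were each above the 40th percentile on 3 of 4 arrays. Their differences are thus not exact measures. Ccl3, higher in control monocytes, was -0.31 ± 0.34 (SE, adjusted p = 0.425). Cxcl16 was called at 0.23 ± 0.093 (SE, adjusted p = 0.0431), but the call was lost under 12 of 18 alternatives, among them the replicate block (adjusted p = 0.129), each array set alone and leaving out any 1 of 5 arrays (adjusted p 0.0594 to 0.129).

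Several ligands differed between the array sets within a group, where each set has 2 arrays. Cxcl2 was higher in the second set in all 4 groups, by 1.39 in control monocytes, 1.10 in monocytes labelled deficient, 1.19 in control neutrophils and 1.55 in neutrophils labelled deficient. The share of all genes tested that were more than 2-fold higher in the second set was 0.411%, 1.49%, 0.0896% and 0.299% in these groups. Cxcl10 was higher by 1.43 in control monocytes, 0.58 in control neutrophils and 0.93 in neutrophils labelled deficient, but by -0.031 in monocytes labelled deficient. Ccl2 was higher by 1.63 and 1.05 in the monocyte groups, and by 0.18 and 0.032 in the neutrophil groups.

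Ccl3 was lower in the second set of control neutrophils by 1.45, and 0.142% of all genes were more than 2-fold lower there. The ligands that separated the sets least were Ccl9, between -0.38 and 0.17, and Cxcl16, between -0.12 and 0.14. In control monocytes all 19 genes of a dissociation stress list were higher in the second set, with a median of 0.53, while in the other groups 12 to 14 of 19 were, with medians of 0.13 to 0.17. The median of 8 primary granule genes was 1.39 higher in the second set of control monocytes and 1.18 higher in that of monocytes labelled deficient. The part of these lists in the ligand differences was not tested.

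**Figure D4:**
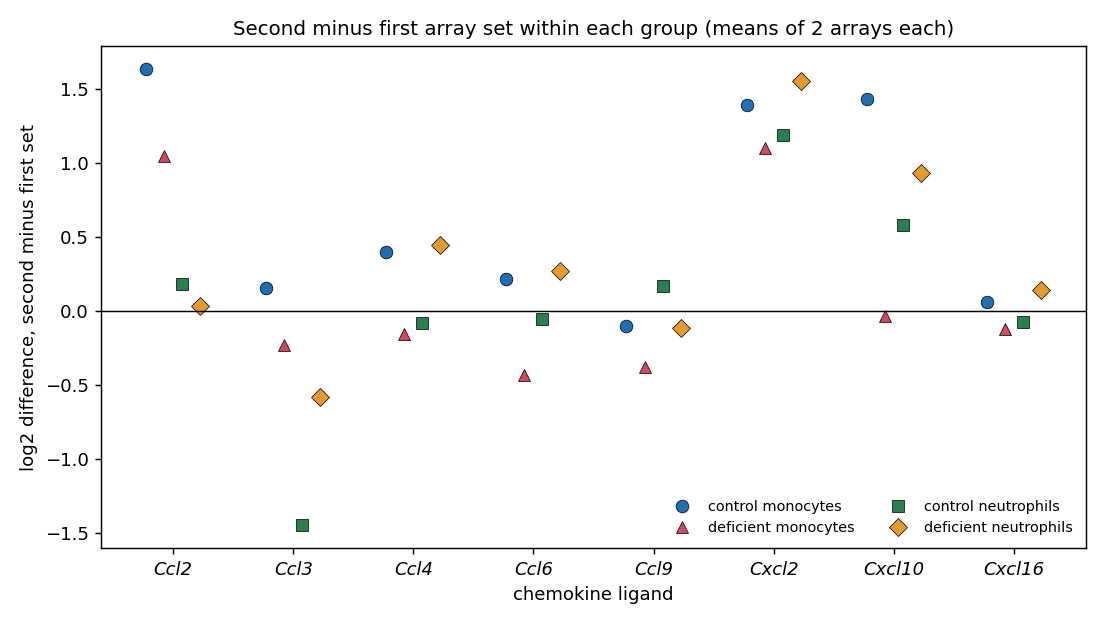
Log2 difference of each chemokine ligand between the second and the first array set within each group, each a difference of 2 means of 2 arrays. Cxcl2 lies between 1.10 and 1.55 in all 4 groups, Cxcl10 is 1.43 in control monocytes and -0.031 in monocytes labelled deficient, and Ccl3 is -1.45 in control neutrophils.

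The untreated controls, 1 array per cell type, allow values but no test. The untreated monocyte array read 8.33 for Ccl2, 6.11 for Ccl4, 4.39 for Cxcl2 and 7.17 for Cxcl10, each inside the range of the poly(I:C) controls. It lay just outside for Ccl3 (10.02) and Ccl9 (10.50), above the highest control, and for Ccl6 (10.49), below the lowest. The untreated neutrophil array was inside the range for Ccl2 (5.55), Ccl3 (9.24), Ccl9 (5.43) and Cxcl2 (8.94). It was above it for the interferon-induced Cxcl10 (5.57) and below it for Ccl4 (6.21) and Ccl6 (11.08). Cxcl16 was 4.84 in untreated monocytes and 4.20 in untreated neutrophils, outside both ranges.

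Of 29 other chemokine ligands, 16 were tested. In control cells 1 was higher in monocytes, the interferon-induced Cxcl9 (1.79 ± 0.26, adjusted p = 9.95e-06). Another 8 were higher in neutrophils, by at most 0.57 in log2 (Cx3cl1, -0.57 ± 0.14). Over all genes tested, 29.9% were higher in monocytes and 28.7% lower. Of the 8, Ccl1, Ccl7, Xcl1 and Cx3cl1 were above the 40th percentile on 2 of 4 control monocyte arrays and Cxcl14 on 1. That percentile was itself higher on neutrophil arrays (4.40 to 4.50) than on monocyte arrays (4.28 to 4.37). These small differences are thus not exact measures. In monocytes labelled deficient only Ccl25 changed, a ligand of Ccr9, by -0.55 ± 0.15 (SE, adjusted p = 0.036, and 0.106 with the replicate block). Over all genes tested 7.54% were called there. Cxcl9 was -0.51 ± 0.26 (SE, adjusted p = 0.284, and 0.0405 when blocked on the array set). The median change of the 16 was 0.011. In neutrophils none passed, with Ccl25 (-0.30, adjusted p = 0.989) at the smallest p.

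Of 13 chemokine receptors tested in control cells, 3 were higher in monocytes, Ccr2, Cx3cr1 and Cxcr6, and 5 higher in neutrophils, beside the 58.6% of all genes that differed. Ccr2, the receptor of Ccl2, was higher in monocytes by 7.20 ± 0.24 (adjusted p = 1.19e-13), and Cxcr2, the receptor of Cxcl2, higher in neutrophils (-7.26 ± 0.32, 154-fold, adjusted p = 2.88e-12). Ccr1, the receptor of Ccl3, Ccl6 and Ccl9, was higher in neutrophils too (-3.23 ± 0.18, adjusted p = 7.28e-11). In control neutrophils Ccr2 was above the 40th percentile on 1 of 4 arrays, and in control monocytes Cxcr2 was on 3 of 4. The differences of these 2 receptors are thus not exact measures. Ligand and receptor were higher in the same cell type for Ccl2 with Ccr2, Cxcl2 with Cxcr2 and Ccl6 with Ccr1. They were higher in opposite cell types for Ccl3 and Ccl9 with Ccr1. Cxcr3, the receptor of Cxcl10, was 0.40 ± 0.17 (adjusted p = 0.0522, and 0.0418 when blocked on the array set), and Cxcr6 was higher in monocytes while its ligand Cxcl16 did not pass.

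In monocytes labelled deficient 4 of 13 receptors rose and 1 fell, beside 7.54% of all genes tested called either way and 2.44% called lower. Cxcr2 rose from 4.78 ± 0.77 (SD, n = 4) to 8.45 ± 0.72, by 3.66 ± 0.32 (SE, adjusted p = 1.24e-06). Ccr9 (1.08 ± 0.22, adjusted p = 0.00465), Ccr1 (0.73 ± 0.18, adjusted p = 0.0188) and Cxcr4, the marrow retention receptor (0.33 ± 0.086, adjusted p = 0.0241), rose by less. Ccr9 was above the 40th percentile on 0 of 4 control monocyte arrays and 4 of 4 labelled deficient, so it passed the filter through the group where it was high and its change is not an exact measure. Cx3cr1, the fractalkine receptor, fell by 1.17 on the log2 scale (SE 0.27, adjusted p = 0.011). With the replicate block Cxcr2 (adjusted p = 0.012) and Ccr1 (adjusted p = 0.0419) stayed called, while Ccr9 (0.0706), Cxcr4 (0.198) and Cx3cr1 (0.0553) had adjusted p-values above 0.05.

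Ccr2 read 9.88 to 10.80 in monocytes labelled deficient and 11.07 to 11.28 in controls, a change of -0.78 ± 0.24 (SE) with adjusted p = 0.0557 over all arrays and 0.0384 when blocked on the array set. Cxcr6, the receptor of Cxcl16, was -0.52 ± 0.19 (SE, adjusted p = 0.107) and Cxcr3, the receptor of Cxcl10, was -0.00043 ± 0.17 (adjusted p = 0.998). In neutrophils none of the 13 receptors passed. Cxcr3, at 5.61 to 5.79 in neutrophils labelled deficient and 4.53 to 5.34 in controls, had a change of 0.76 ± 0.17 (SE, adjusted p = 0.136). Ccr3 was below the filter. The difference between the cell types' genotype changes passed for Cxcr2 (3.69 ± 0.45, adjusted p = 0.00018) and for no other receptor over all arrays. With the replicate block Ccr1 (adjusted p = 0.0477) and Ccrl2 (0.0379) passed too, and blocked on the array set Ccr9 (0.0497), Ccrl2 (0.0362) and Cx3cr1 (0.0436).

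**Figure D5:**
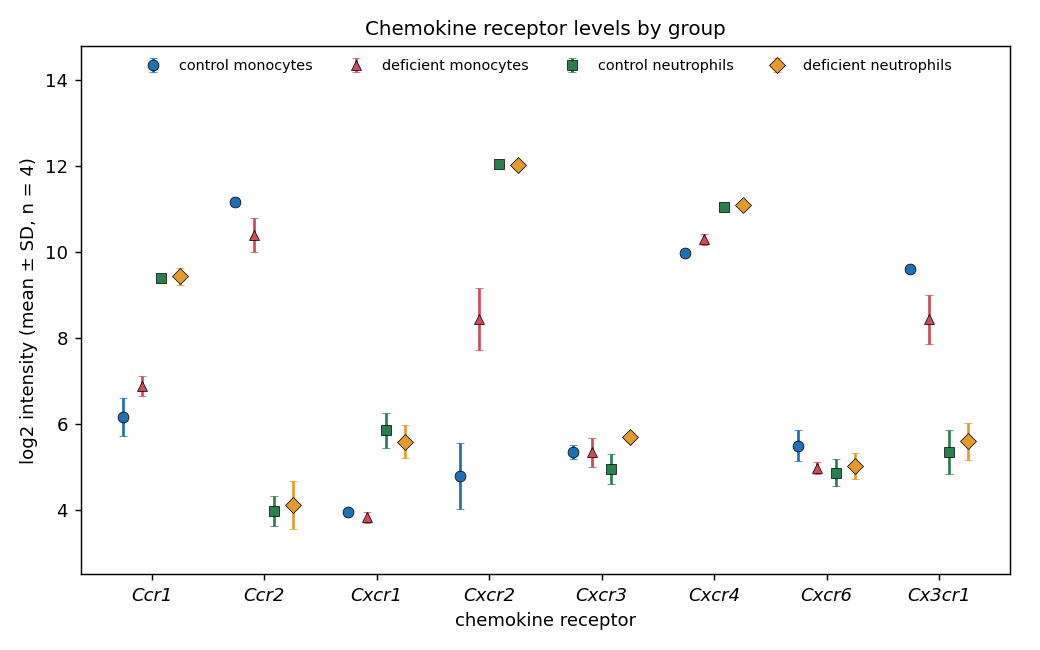
Log2 intensity of 8 chemokine receptors, mean ± SD of 4 arrays, in control monocytes, monocytes labelled Zeb2-deficient, control neutrophils and neutrophils labelled deficient. Cxcr2 is 4.78 in control monocytes and 8.45 in monocytes labelled deficient beside 12.05 in control neutrophils, and Ccr2 is above 10 in both monocyte groups and near 4 in both neutrophil groups.

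Enzymes that cut or present chemokines included granule proteases. In monocytes labelled deficient 5 of 11 tested rose and none fell over all arrays, against 7.54% of all genes tested called either way. They were Elane (2.69), Ctsg (2.67), Mmp9 (2.39), Prtn3 (2.36) and Mmp8 (0.78), with adjusted p of at most 0.0151. All 5 are neutrophil or promyelocyte granule genes, and 4 of them stayed called with the replicate block, Mmp8 not (adjusted p = 0.175). Between the control cell types Mmp8 and Mmp9 were called higher in neutrophils, but Elane, Ctsg and Prtn3 were called higher in monocytes. Blocked on the array set, Ext1 was called lower as well (-0.85, adjusted p = 0.0199). The Cxcl16 sheddases Adam10 (0.037) and Adam17 (-0.28) did not pass. In control cells Adam17 was higher in monocytes by 0.66 ± 0.17 (SE, adjusted p = 0.00349).

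Of 17 regulators of NF-kB signalling and mRNA decay, 1 rose and 2 fell in monocytes labelled deficient. For this and the next 2 lists, 7.54% of all genes tested were called either way in this comparison and 2.44% lower. Tnf rose by 0.67 ± 0.18 (SE, adjusted p = 0.0309), Nfkbiz changed by -0.72 ± 0.20 (adjusted p = 0.0347), and Zfp36, which destabilises cytokine and chemokine mRNA, by -0.53 ± 0.11 (adjusted p = 0.00447). With the replicate block their adjusted p-values were 0.141, 0.208 and 0.121. Blocked on the array set, Zfp36l2 was called lower as well (-0.42, adjusted p = 0.033). Of 25 interferon response genes tested none passed in monocytes over all arrays. All 25 had values below 0, against 57.4% of all genes tested, with a median of -0.44 against -0.034. The smallest p was that of Irf7 (-0.72, adjusted p = 0.0663). Blocked on the array set, 6 were called, all lower, among them Oas1a (-0.94, adjusted p = 0.00412) and Irf7 (adjusted p = 0.0449), and with the replicate block none was. Of 19 dissociation stress genes 5 fell and none rose over all arrays, Atf3 (-1.46), Nr4a1 (-0.92), Fos (-0.84), Btg2 (-0.48) and Klf6 (-0.45), and Atf3 alone of these stayed called with the replicate block (adjusted p = 0.0107). That block also called Fosb (-1.23, adjusted p = 0.0438) and Dusp1 (-0.80, adjusted p = 0.0326) lower. Blocked on the array set, 10 were called lower and 1 higher, Ier3 (0.99, adjusted p = 0.00138). In neutrophils labelled deficient 1 gene of these lists passed, Egr2 (1.45, adjusted p = 0.0111), beside 0.120% of all genes tested.

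The genes whose pattern over the 18 arrays was most like that of a ligand mostly followed its cell type. Pearson's r was 0.995 between Ccl9 and Pld4 and between Ccl9 and Capn2. It was 0.980 between Cxcl2 and Hrh2, 0.971 between Ccl6 and Mrpl33 and 0.970 between Ccl2 and Ldhb. For Cxcl10 the closest gene was another ligand of Cxcr3, Cxcl9 (r = 0.948). The likeness was lower for Ccl4 (Nfe2l1, 0.911), Ccl3 (Cbx8, 0.852) and Cxcl16 (Nup50, 0.850). Among the ligands themselves r ran from -0.958 for Ccl9 with Cxcl2 to 0.923 for Ccl2 with Ccl9, and the adjacent genes Ccl3 and Ccl4 had r = 0.036. All these arrays share the split between 2 cell types and between 2 array sets.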

How the data were processed

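Total RNA was prepared with the RNAqueous-Micro kit and labelled after Ovation PicoSL target preparation, per the labels. The deposited values are log2 intensities per probe set made by the authors, and the submitters' processing notes name RMA for them. Which program and background step were used was not given in the sources used here. Array medians were 4.81 to 4.92. Of 30177 probe sets 21789 had 1 symbol, and a gene with several was taken by the one with the highest mean. Tested genes had to exceed the 40th percentile of the array on 4 arrays or more. The model was fitted in limma 3.58.1 (R 4.3.3), with 1 mean for each of 6 groups over 18 arrays, 12 residual degrees of freedom and a trend in the prior variance. All p-values are two-sided, and adjusted p-values are Benjamini-Hochberg over 13387 genes at 0.05. Each comparison had 4 arrays a side, and this number limits the precision. The script was tested on simulated data. Non-overlap means that every array of one group lies above every array of the other. Named genes are the members, Zeb2, the members' receptors and sheddases, up to 6 called genes per pathway list and comparison by size of change (where none was called, up to 2 by smallest p), and the 2 genes most correlated with each member. Cell marker lists are given by counts, medians and the range of their mean level. The marker genes Ly6g and Stfa3 and the ligand Ccl1 fall outside this rule and were named after their levels were seen. Genes called in a comparison only by an alternative fit, such as Zfp36l2 and Oas1a in monocytes, also fall outside it. Members, lists and rules were chosen with earlier results of these data known. Promoter sequences are from RefSeq (GRCm38.p6).

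The correlation of deviations from the group means between same-numbered arrays was 0.290 to 0.428 over 3 pairs of monocyte genotypes, 0.183 to 0.378 over 3 pairs of neutrophil genotypes, 0.124 to 0.246 over 4 pairs of the cell types labelled deficient and 0.0591 to 0.259 over 4 pairs of the control cell types. Same-numbered arrays mostly share an array set. Between monocyte genotypes the median of same-numbered pairs was 0.372, beside 0.247 for arrays of 1 set with other numbers (0.127 to 0.348). For neutrophil genotypes these medians were 0.193 and 0.199, for cell types labelled deficient 0.201 and 0.200, and for control cell types 0.187 and 0.173. A pairing by number is thus not told apart from the array set. Between the monocyte genotypes the median was higher for same-numbered pairs, but the ranges overlapped. The main model has no replicate block, which was run as an alternative, on the values and not on the labels. Alternatives were quantile normalization, other filters, no variance trend, the mean of probe sets, only the arrays compared, the array set as a block or alone, the replicate block and leaving out each array.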

Additional observations from a re-analysis of the deposited data

Results flagged for a closer look

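One value of the chemokine ligands stood far from the rest of its group. Ccl3 in replicate 3 of the neutrophils labelled Zeb2-deficient was 8.61 in log2 intensity, while the other 3 arrays of the group read 9.67 to 9.82. Its gap to the nearest array was 0.88 of the group's whole range, which is past Dixon's 95% critical value. In all, 32 groups of 4 arrays were checked, and chance gives such a value in about 5% of groups. Ccl3 in control neutrophils was itself spread from 7.96 to 9.88, with both arrays of the second array set below the first. In the neutrophils labelled deficient the other array of the second set, replicate 4, read 9.71, so only the flagged array was low.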

How the results depend on the processing

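Counts of called genes and ligands moved with the array set, the replicate block and single arrays; the cause was not tested. For the monocyte genotype change 2 ligands and 1010 genes were called. There were 500 genes with only the arrays compared, 1516 with the array set as a block, 1 ligand and 217 genes with the replicate block, 0 and 215 in the first set and 5 and 1724 in the second. With the set as a block within each cell type, chosen after seeing the data, 4 ligands and 1749 genes were called, Ccl2 (adjusted p = 0.0126) and Cxcl10 (0.0359) beside Ccl6 and Ccl9. Leaving out 1 array gave 620 to 2001 genes (2001 without replicate 2, 621 without 3 and 620 without 4 of the monocytes labelled deficient), with Ccl6 and Ccl9 called each time. The block changed no other call of a member than those named beside the results.

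For neutrophils 16 genes became 9 with only the arrays compared, 27 with the set block within cell types, 3 in the first set and 8 to 17 without 1 array (8 without replicate 1 of those labelled deficient, 9 without replicate 4 of the controls). For the difference between the changes, 0 ligands and 359 genes became 1 and 567 with the set block, 2 and 727 with it within cell types (Ccl3 at 0.0153, Cxcl10 at 0.0376), 3 and 731 in the second set, 72 genes in the first, 224 with the replicate block, and 0 to 2 ligands and 245 to 904 genes without 1 array (904 without replicate 2 of the monocytes labelled deficient).

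Values that changed sign were small. Cxcl2 in monocytes was -0.00085 after quantile normalization, -0.14 in the second set, -0.064 with the replicate block and -0.34 to 0.32 without 1 array. Cxcl16 in neutrophils was -0.0035, -0.090 in the first set, -0.0050 with the replicate block and -0.011 to 0.045. Ccl6 in neutrophils was 0.076 in the second set. For the difference between the changes, Cxcl16 was -0.10 in the second set and Ccl2 -0.61 to 0.087 without 1 array. The calls of Ccl2, Ccl9, Cxcl2 and Cxcl10 between the cell types kept their direction and threshold under every alternative run. Cxcl16, near the 40th percentile, is limited by its low signal.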
